A study of Mus musculus with 6 samples.

Results

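The genes described here are 9 that are commonly used to find or subdivide fibroblasts by their surface or by their cell state: Ddr2, Thy1, Ly6a, Ly6c1, Cd34, Pi16, Scara5, Dpep1 and S100a4. They were taken from the gene count table by symbol, 9 of 25746 listed genes, and each symbol matched 1 row. Expression was measured by RNA-seq in 2 libraries of cardiac fibroblasts labelled Acta2 KO (Acta2 is the gene for α-smooth muscle actin) and 2 libraries labelled WT. Open chromatin was measured by ATAC-seq in 1 KO and 1 WT library. The labels describe fibroblasts of WT and Acta2fl/fl mice that were given Cre by adenovirus in culture and then TGFβ, a cytokine that drives fibroblasts toward myofibroblasts, for 2 days. For every sample they also describe mice with a tamoxifen-inducible MerCreMer, injected at an age of 6 weeks with tamoxifen in corn oil (75 mg/kg daily, 5 days). These mice had a permanent ligation of the left coronary artery under isoflurane at 9 weeks, with carprofen against pain and a second tamoxifen course from 1 day before to 5 days after it, and eGFP+ cells of the Tcf21 lineage were sorted from the heart. The promoter that drives MerCreMer is not named. Which of the 2 sources a library came from is not stated, and the WT libraries carry the same text on Cre, TGFβ, tamoxifen and infarction as the KO libraries. Whether the replicates are separate animals or cultures is not stated either, so p-values here cover the spread among these libraries alone, and that spread may be technical.

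Resting fibroblasts have no single marker, so they are recognised by combinations of surface proteins. DDR2 is a receptor tyrosine kinase for fibrillar collagen, THY1 and the LY6 proteins are small proteins held on the membrane by a glycosylphosphatidylinositol (GPI) anchor, and CD34 is a sialomucin shared with endothelial and haematopoietic progenitor cells. Fibroblasts high in LY6A (also called SCA-1), CD34 and PI16 are found in the adventitia of vessels in many organs, while S100A4, a calcium-binding protein long called fibroblast-specific protein, is also made by leukocytes.

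The 4 libraries held 8429166 to 11370115 estimated counts, and Acta2 itself was lower in the KO libraries, at 261 ± 6.74 against 2193 ± 9.69 CPM (counts scaled to a common library size, SD, n = 2). Fibroblast genes were expressed: all 16 genes of a pan-fibroblast list were detected well enough to test, and together they made up 6156 to 6206 CPM in KO and 7091 to 7289 CPM in WT. Among markers of other cells, 12 macrophage markers summed to 177 and 179 CPM in the KO pair and 97.9 and 102 CPM in the WT pair, with Fcgr1 at 0 in every library. The 12 endothelial markers summed to 508 and 519 CPM in the KO pair and 380 and 405 CPM in the WT pair, most of it from Eng, which fibroblasts also express, and without Eng to 152 to 166 CPM in KO and 114 to 121 CPM in WT. The 8 lymphocyte markers summed to 4.11 and 4.12 CPM in the KO pair and 2.04 and 2.77 CPM in the WT pair, with Cd2, Cd3d and Nkg7 at 0 in all 4 libraries. The 8 mesothelial markers summed to 282 and 271 CPM in the KO pair and 279 and 273 CPM in the WT pair. The 9 pericyte and smooth muscle markers summed to 88.8 and 95.7 CPM in the KO pair and 60.6 and 62.3 CPM in the WT pair. The 8 cardiomyocyte and 6 Schwann markers summed to at most 8.185 and 3.871 CPM in any library. In bulk RNA, fewer cells of a type and less RNA per cell cannot be told apart.

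Of the 9 marker genes, 8 passed the filter on low counts and 5 of them changed between genotypes. Thy1 and Cd34 rose in KO, and Ly6a, Ly6c1 and Dpep1 fell, while Ddr2, Pi16 and S100a4 did not pass the test and Scara5 was too low to test. Across all 12192 tested genes, 35.7% were called, 18.3% upward and 17.4% downward. The median absolute log2 fold change was 0.386 for the 8 tested markers and 0.214 for all tested genes. The changes were small: each of the 5 called genes moved by less than 1.5-fold, from a log2 fold change of -0.56 for Ly6c1 to 0.33 for Cd34. The libraries of the 2 genotypes did not overlap in 5 of the 8, which was the case for 67.1% of all tested genes. The plot of levels by library shows these separations and the scatter of the low genes.

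**Figure D1:**
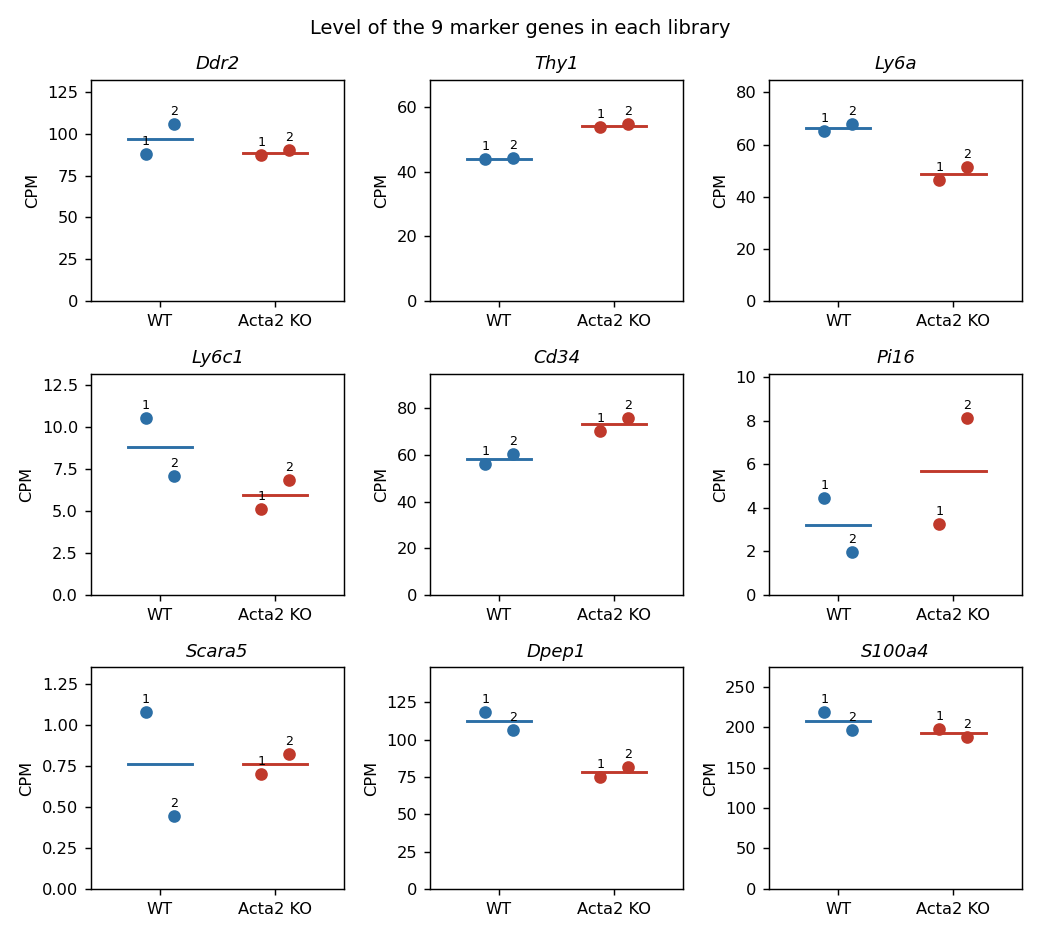
Library-size normalised level (CPM, linear axis from 0) of each of the 9 marker genes in the 2 WT (blue) and 2 Acta2 KO (red) libraries; points are libraries, numbered by replicate, and bars are means. Thy1 and Cd34 are higher in both KO libraries than in either WT library, Ly6a, Ly6c1 and Dpep1 are lower, and the other 4 overlap.

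The promoters of 6 of the 9 genes were found in the RefSeq table for GRCm38.p6, the assembly also called mm10; Thy1, Ly6a and Scara5 had no entry. The entry of Ddr2 starts 21818 bp inside the gene, and all 250 bases before the Pi16 entry's start overlap annotated exons of other transcripts, so neither is printed. The remaining 4 are shown because each starts within 7 bp of the gene's annotated start and can be set beside the peaks described further down. Each line gives the bases before the RefSeq start, 5′ to 3′, with annotated exon bases left out, and capitals mark every match to 1 of 7 searched motifs.
Cd34: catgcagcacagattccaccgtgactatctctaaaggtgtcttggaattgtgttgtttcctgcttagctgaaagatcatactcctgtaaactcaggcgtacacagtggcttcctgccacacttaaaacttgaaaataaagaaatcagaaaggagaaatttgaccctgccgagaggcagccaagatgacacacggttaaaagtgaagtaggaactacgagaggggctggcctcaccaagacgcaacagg
Ly6c1: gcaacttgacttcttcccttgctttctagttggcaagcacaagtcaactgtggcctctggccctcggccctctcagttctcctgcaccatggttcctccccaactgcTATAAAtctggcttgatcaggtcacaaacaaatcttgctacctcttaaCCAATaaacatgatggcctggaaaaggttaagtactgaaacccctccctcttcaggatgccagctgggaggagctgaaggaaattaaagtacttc
Dpep1: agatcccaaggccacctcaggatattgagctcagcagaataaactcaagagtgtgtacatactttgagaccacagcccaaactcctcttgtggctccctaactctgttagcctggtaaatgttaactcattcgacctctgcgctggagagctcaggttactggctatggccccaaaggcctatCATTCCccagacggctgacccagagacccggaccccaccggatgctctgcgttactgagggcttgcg
S100a4: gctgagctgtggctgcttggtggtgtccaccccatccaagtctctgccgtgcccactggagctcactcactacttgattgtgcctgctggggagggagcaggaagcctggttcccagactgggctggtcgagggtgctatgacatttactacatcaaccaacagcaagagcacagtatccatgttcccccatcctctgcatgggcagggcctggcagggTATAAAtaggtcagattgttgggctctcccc
They lie at chr1:194938571-194938818 on the plus strand, chr15:75048838-75049087 on the minus strand, chr8:123185985-123186234 on the plus strand and chr3:90603520-90603769 on the plus strand. The motifs were searched on both strands, and no 2 matches overlapped. They were TATAAA, the TATA box (in 12.4% of the 250-base windows of all 32851 promoters), CCAAT (33.8%), GGGCGG, bound by SP1 (32.7%), TGANTCA, bound by AP-1 (6.7%), GGAATG, bound by TEAD factors (12.6%), the CArG box of SRF (1.5%) and TTCNNNGAA, bound by STAT factors (7.0%). S100a4 holds TATAAA 31 to 26 bases before its start, the usual place of a TATA box. Ly6c1 holds TATAAA at 143 to 138 and CCAAT at 95 to 91 bases before the start. Dpep1 holds GGAATG on the minus strand at 67 to 62 bases before the start, and the 248 bases of Cd34 hold none of the 7. The Dpep1 and Cd34 windows contain 7 and 6 CpG dinucleotides, close to the median of 6 over all promoters, and those of S100a4 and Ly6c1 contain 2 and 1. A match describes the letters only, and binding was not measured.

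Thy1 rose in KO. It encodes CD90, a GPI-anchored immunoglobulin-domain protein that marks stromal cells and, in mice, T cells and neurons. The gene lies on the plus strand of chromosome 9 at 44043384 to 44048579. It had 613 and 599 estimated counts in the KO libraries and 365 and 400 in WT, or 53.7 and 54.7 CPM in the KO pair and 43.8 and 44.2 CPM in the WT pair. Both KO libraries were above both WT libraries, and replicates nearly coincided. The mean ± SD over n = 2 was 54.2 ± 0.673 CPM for KO against 44.0 ± 0.333 CPM for WT, and the log2 difference was 0.30 (SE 0.075, adjusted p = 0.00265, by the quasi-likelihood test of edgeR). Of the 8 lymphocyte markers Lck alone, a T-cell kinase, was tested, and it rose (log2 fold change 1.08, adjusted p = 0.0205, edgeR). It had 39 and 32 estimated counts in the KO pair and 10 and 16 in the WT pair. Cd79a had 8 and 11 in the KO pair and 7 and 9 in the WT pair. The part of T cells in the rise of Thy1 was not tested. The rise kept its size under every alternative tried but lost its call with DESeq2 (adjusted p = 0.0786) and with an assumed biological coefficient of variation (BCV) of 0.1 (adjusted p = 0.213).

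Ddr2, the collagen receptor, did not pass the test. The gene covers 138456 bp on the minus strand of chromosome 1, from 169972307 to 170110762, and the antisense gene 3110045C21Rik overlaps its 3′ end. Its level was 87.2 and 90.2 CPM in the KO pair and 88.0 and 106 CPM in the WT pair. WT replicate 2 stood above the other 3 libraries, which lay close together. On the log2 scale KO minus WT was -0.13 (SE 0.066, adjusted p = 0.125, edgeR), and it rested on that library. Without WT replicate 2 it was 0.0082 (adjusted p = 0.948), and without WT replicate 1 it was -0.26 (adjusted p = 0.00145). Ddr1, the epithelial relative of Ddr2, rose from 11.8 to 15.7 CPM (log2 fold change 0.41, adjusted p = 0.0287, edgeR).

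Cd34 rose. It lies on the plus strand of chromosome 1 at 194938819 to 194961279, with the antisense gene Gm16897 over its 3′ part. Its level was 70.2 and 75.7 CPM in the KO pair and 55.9 and 60.2 CPM in the WT pair, so the lower KO library was above the higher WT library. The mean ± SD over n = 2 was 73.0 ± 3.93 CPM for KO against 58.0 ± 3.03 CPM for WT, and the log2 difference was 0.33 (SE 0.069, adjusted p = 0.000467, edgeR). In the same libraries 9 of 12 endothelial markers rose and 1, Flt1, fell, with a median log2 fold change of 0.518. CD34 is also an endothelial protein, and the part of endothelial cells in its rise was not tested. The rise kept its call without any 1 library and with DESeq2 (adjusted p = 0.0216), and lost it with an assumed BCV of 0.1 (adjusted p = 0.147).

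The LY6 marker genes, Ly6a and Ly6c1, went the other way in RNA. Ly6a and Ly6c1 are minus-strand genes of chromosome 15, from 74994877 to 74998031 and from 75044018 to 75048830, 45987 bp apart in a cluster of related genes. Ly6a, which encodes SCA-1, was at 46.4 and 51.5 CPM in the KO pair and 65.1 and 67.9 CPM in the WT pair. Both KO libraries were below both WT libraries by more than the replicates differed. The mean ± SD over n = 2 was 48.9 ± 3.58 CPM for KO against 66.5 ± 1.96 CPM for WT, and the log2 difference was -0.44 (SE 0.073, adjusted p = 2.26e-05, edgeR). Only 1.4% of the 100-base windows of its transcripts also occur in another gene, Ly6c1.

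Ly6c1 encodes a LY6C antigen of endothelial and stromal cells, and it was about an order of magnitude lower than Ly6a per kilobase of transcript. It had 58.4 and 74.8 estimated counts in the KO pair and 88.0 and 64.2 in the WT pair, or 5.12 and 6.83 CPM in the KO pair and 10.6 and 7.10 CPM in the WT pair. The KO libraries were both lower, but the higher KO library lay just under the lower WT library. On the log2 scale KO minus WT was -0.56 (SE 0.21, adjusted p = 0.0403, edgeR), close to the threshold. The call was lost with DESeq2 (adjusted p = 0.258), without KO replicate 1 (log2 fold change -0.36, adjusted p = 0.267) and without WT replicate 1 (log2 fold change -0.25, adjusted p = 0.496). Of its windows, 10.1% occur in other genes, mainly in Ly6c2, the LY6C gene of monocytes, which had 1.2 estimated counts in KO replicate 2 and 0 in the other 3 libraries. The endothelial markers, whose cells also carry LY6C1 and LY6A, were higher in KO, and their part in these values was not tested.

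The rest of the LY6 and uPAR domain family had no common direction. Of 20 listed relatives 7 were tested, of which 2 rose, 1 fell and 4 did not pass, and their median log2 fold change was 0.0072. Ly6e, the neighbour 34972 bp from Ly6a, had a level between 251 and 255 CPM in all 4 libraries (log2 fold change 0.0072, adjusted p = 0.915, edgeR). Ly6k fell from 11.4 ± 1.71 to 5.37 ± 0.407 CPM (mean ± SD over n = 2, log2 fold change -1.08, adjusted p = 4.14e-05). Cd59a, a GPI-anchored inhibitor of complement, and Plaur, the urokinase receptor, rose by log2 fold changes of 0.65 and 0.21. Of 27 tested genes that build and attach GPI anchors, which Thy1, Ly6a, Ly6c1 and Dpep1 products all need, 7 rose and 20 did not pass, with a median of 0.0886. Pigq and Pigl, both of early steps of the pathway, rose by 0.62 and 0.69.

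Dpep1 showed the smallest adjusted p of the 8 tested genes. It encodes a GPI-anchored zinc dipeptidase that cleaves leukotriene D4 and is a marker of some fibroblast states, and it lies on the plus strand of chromosome 8 at 123186242 to 123201812. Its level was 74.7 and 81.5 CPM in the KO pair and 119 and 106 CPM in the WT pair. The gap between the higher KO and the lower WT library was wider than that within either pair of replicates. The mean ± SD over n = 2 was 78.1 ± 4.84 CPM for KO against 113 ± 8.79 CPM for WT, and the log2 difference was -0.53 (SE 0.062, adjusted p = 1.23e-07, edgeR; DESeq2 adjusted p = 5.10e-07). Gm20388, a long read-through gene model on the same strand, spans the whole locus. It had 133 and 177 estimated counts in the KO pair and 183 and 146 in the WT pair. In CPM these were 11.6 and 16.16 in the KO pair and 21.9 and 16.2 in the WT pair. Gm20388 fell (log2 fold change -0.45, adjusted p = 0.0267, edgeR) but was not called with DESeq2 (adjusted p = 0.18). Its annotated transcripts share no 100-base window with those of Dpep1. With an assumed BCV of 0.2 neither Dpep1 nor Ly6a was called (adjusted p = 0.539 and 0.716).

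Pi16 encodes a secreted or membrane-bound protein of the CAP family and is the leading marker of adventitial fibroblasts. It lies on the plus strand of chromosome 17 at 29317680 to 29330593. It had 37 and 89 estimated counts in the KO pair and 37 and 18 in the WT pair, or 3.24 and 8.12 CPM in the KO pair and 4.44 and 1.99 CPM in the WT pair. The genotypes overlapped: KO replicate 1 was below WT replicate 1, and KO replicate 2 was 2.51 times KO replicate 1. The log2 difference of 0.83 (SE 0.35, adjusted p = 0.0633, edgeR) was the largest of the 8 tested genes and did not pass. It was 0.029 without KO replicate 2 and 1.498 without WT replicate 1 (adjusted p = 0.969 and 0.000300), so that single libraries decided its size and its call. It passed with an assumed BCV of 0.1 (adjusted p = 0.0198). The 3 genes with the most similar pattern over the 4 libraries, by Euclidean distance of centred log2 CPM, were the mitochondrially encoded mt-Co3 and mt-Atp6 and the monooxygenase-like Moxd1, at distances of 0.624, 0.705 and 0.759. All mitochondrially encoded genes together took 0.731 and 0.796% of the counts in KO and 0.779 and 0.738% in WT. For Ly6c1 the nearest were Gm20388 and Tanc2, at 0.14 and 0.178, and with 4 libraries such likeness is a description only.

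Genes known to accompany Pi16 in adventitial fibroblasts were mostly lower in KO. Of 20 tested companions 12 fell, 2 rose and 6 did not pass, with a median log2 fold change of -0.228, against 0.0014 for all tested genes. Dpp4, the surface peptidase used with Pi16 to sort these cells, fell from 10.2 to 3.62 CPM (log2 fold change -1.49, adjusted p = 1.58e-06, edgeR). Gfpt2 and Ugdh, which supply precursors for hyaluronan, fell from 742 ± 30.4 to 512 ± 16.5 CPM and from 675 ± 8.76 to 520 ± 12.4 CPM (SD, n = 2). The scavenging chemokine receptor gene Ackr3 fell by 1.48 on the log2 scale, the microfibril genes Fbn1 and Mfap5 by 0.47 and 0.21, and Efhd1 and Uchl1 rose by 2.55 and 0.55. Pi16 itself had the opposite sign but was too variable to place with or against these genes.

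Scara5, a class A scavenger receptor that binds ferritin and is found on resting fibroblasts, was close to the limit of detection. The gene spans 98424 bp on the plus strand of chromosome 14, from 65666403 to 65764826. It had 8 and 9 estimated counts in the KO pair and 9 and 4 in the WT pair, or 0.701 and 0.821 CPM in the KO pair and 1.08 and 0.442 CPM in the WT pair, so a difference was not detectable at this depth. Tfrc, the transferrin receptor, and Ftl1, the ferritin light chain, did not pass (log2 fold changes -0.065 and -0.033), and Fth1, the ferritin heavy chain, fell by 0.080 on the log2 scale (adjusted p = 0.0111, edgeR). Of 13 tested companions of interstitial resting fibroblasts, 4 fell, 1 rose and 8 did not pass. Mfap4 and Adamts5 fell from 131 ± 4.07 to 45.1 ± 0.790 CPM and from 145 ± 8.26 to 88.4 ± 1.82 CPM (SD, n = 2), and Cxcl14 and Ms4a4d fell by 0.86 and 0.30 on the log2 scale. Hsd11b1, which activates glucocorticoids, rose by 0.094.

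S100a4 was by far the most abundant of the 9 per kilobase of transcript. It is a short gene of 584 exonic bases on the plus strand of chromosome 3 at 90603771 to 90606045. Its level was 198 and 187 CPM in the KO pair and 219 and 197 CPM in the WT pair. KO replicate 1 lay just above WT replicate 2, so the genotypes overlapped, and the log2 difference of -0.11 (SE 0.050, adjusted p = 0.0912, edgeR) did not pass. It passed without WT replicate 2 (-0.19, adjusted p = 0.00946) and without KO replicate 1 (-0.15, adjusted p = 0.0334), and was -0.034 without WT replicate 1. A read-through model, Gm42674, shares 41.9% of the windows of S100a4 but had 2.45 estimated counts in KO replicate 1 and 0 elsewhere.

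Among relatives of S100a4, a list of 13 genes was read, of which 8 were tested. It leaves out S100a7a and holds S100pbp, which encodes a binding protein and not an S100 protein, so it is no tally of the family. On it S100a6, S100a10 and S100a13 fell, S100a3 rose and the other 4, S100pbp among them, missed the threshold. S100a6, 6837 bp downstream, fell from 883 ± 30.1 to 766 ± 12.7 CPM (mean ± SD over n = 2, log2 fold change -0.21, adjusted p = 6.39e-06, edgeR). S100a10, the partner of annexin A2, fell by 0.17 on the log2 scale, S100a13 by 0.23, and Anxa2 itself by 0.18. S100a3, 1069 bp from S100a4, rose from 5.79 to 8.95 CPM (log2 fold change 0.63, adjusted p = 0.0191). The nearby S100a7a, which is not on the list, rose by 1.15 (adjusted p = 9.73e-14). Genes of this 1 cluster moved both ways. Around all 9 markers, 18 other genes within 50 kb were tested, of which 5 rose and 4 fell. Of all tested genes, 18.3% were called upward and 17.4% downward.

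The plot of fold changes with and without each library sets the 8 tested genes side by side. Thy1 stayed between 0.29 and 0.31, Cd34 between 0.27 and 0.38, Ly6a between -0.52 and -0.38 and Dpep1 between -0.61 and -0.45 when any 1 library was left out, and these 4 kept their calls. Ly6c1 ranged from -0.83 to -0.25 and Pi16 from 0.029 to 1.498.

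**Figure D2:**
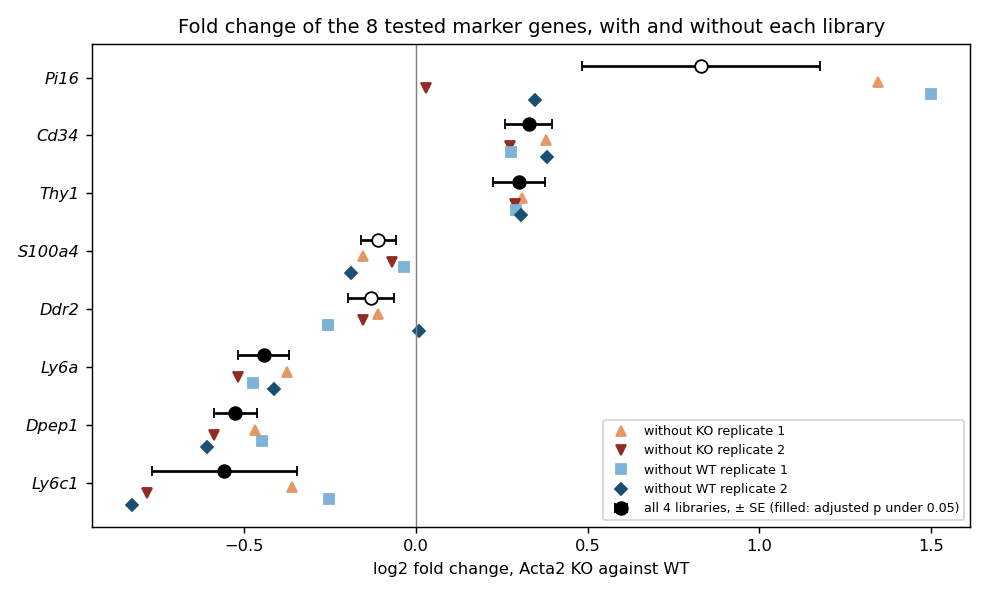
Log2 fold change (Acta2 KO against WT) of the 8 tested marker genes with all 4 libraries (circles, ± SE, filled where the adjusted p is under 0.05) and with each library left out in turn (coloured symbols). Thy1, Cd34, Ly6a and Dpep1 stay on their side of 0 and close to their value, whereas Pi16 runs from 0.029 to 1.498 and Ddr2 reaches 0.0082.

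Levels of different genes were compared as CPM per kilobase of annotated exon. In WT the order was S100a4 at 356 ± 26.9, Ly6a at 55.2 ± 1.63, Dpep1 at 45.3 ± 3.54, Thy1 at 14.7 ± 0.111, Ddr2 at 10.5 ± 1.35, Cd34 at 7.96 ± 0.416, Ly6c1 at 5.26 ± 1.46, Pi16 at 0.505 ± 0.272 and Scara5 at 0.125 ± 0.0739 CPM per kb (SD, n = 2). No 2 neighbours in this order had overlapping libraries. In KO the order was the same except that Cd34, at 10.0 ± 0.539 CPM per kb, came before Ddr2, at 9.58 ± 0.224 CPM per kb, and the libraries of these 2 genes overlapped. The per-kilobase level depends on the exon length used, which counts exons of all annotated transcripts and therefore understates genes whose long transcripts are rare.

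The wider lists of fibroblast genes also moved in both directions. Of 16 tested pan-fibroblast genes 9 fell, 1 rose and 6 did not pass, with a median log2 fold change of -0.176. Dcn, the proteoglycan decorin, and Col1a2 fell from 638 ± 55.5 to 359 ± 11.4 CPM and from 1219 ± 12.1 to 887 ± 7.36 CPM (SD, n = 2), and Gsn, an actin-severing protein, rose by 0.11. Of 18 other stromal surface proteins 9 rose and 5 fell, with a median of 0.138. Pdpn, the podoplanin gene of activated stroma, rose from 426 ± 4.82 to 619 ± 4.08 CPM and Eng, a TGFβ co-receptor, from 275 ± 13.3 to 355 ± 1.69 CPM (SD, n = 2), while Osmr, Vcam1, Nt5e, Cd44 and Cd9 fell by 0.58, 0.30, 0.72, 0.20 and 0.12 on the log2 scale.

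Of 14 tested genes of activated fibroblasts and matrifibrocytes, 8 fell and 2 rose, with a median of -0.331. Postn and Prelp, both matrix proteins, had log2 fold changes of -0.79 and -1.22, and Meox1 and Tnc rose by 0.64 and 0.38. Among 18 tested relatives and partners of the 9 proteins, 7 rose and 5 fell. Crispld2, a CAP family relative of Pi16, rose from 12.3 ± 0.705 to 27.7 ± 0.532 CPM (SD, n = 2), Podxl, a sialomucin of the CD34 family, rose by 0.75 on the log2 scale, and Msr1, the class A scavenger receptor of macrophages, rose by 1.12. The macrophage markers were also higher in KO, and their part in the rise of Msr1 was not tested. Of the integrin subunits that pair to bind THY1, Itgav and Itgb5 were lower by 0.20 and 0.21 on the log2 scale, and Itgb3, the other partner of Itgav on the list, rose by 0.79 (adjusted p = 0.0315, edgeR). Colec12, a scavenger receptor relative of Scara5, fell by 0.42, and the remaining 2 of the 5 that fell were Anxa2 and Fth1.

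**Figure D3:**
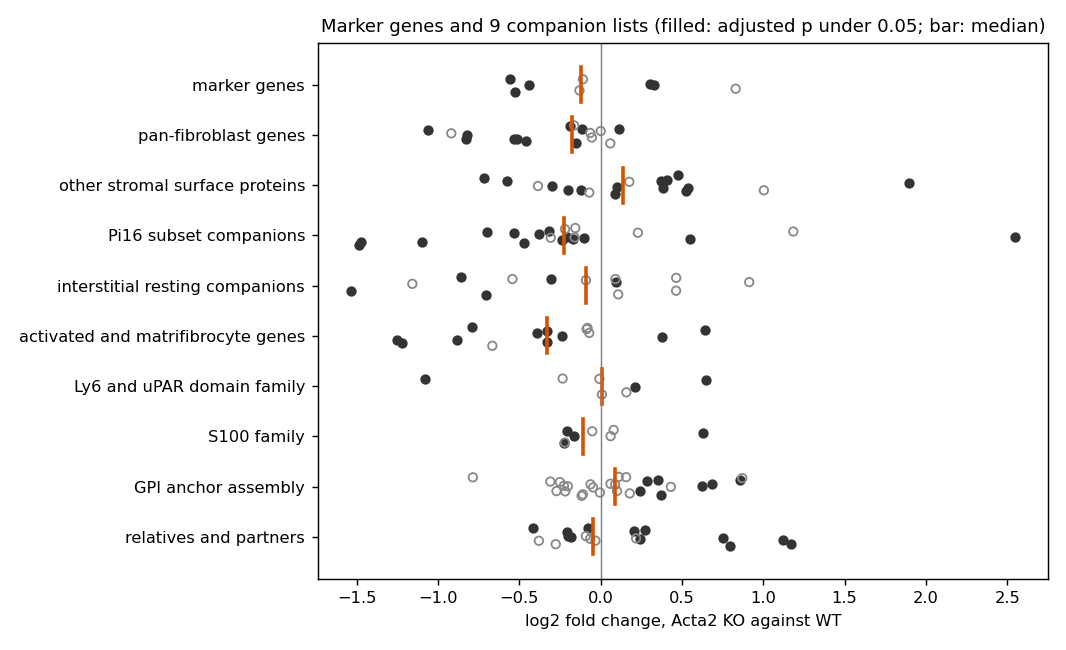
Log2 fold changes (Acta2 KO against WT) of the tested marker genes and of the tested members of 9 companion lists (the S100 list holds S100pbp and leaves out S100a7a); each point is a gene, filled where the adjusted p is under 0.05, and the orange bar is the list's median. The medians of the Pi16 companions (-0.228) and of the activated and matrifibrocyte genes (-0.331) lie below 0, and that of the other stromal surface proteins (0.138) above it.

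Nearly all 9 genes had an ATAC-seq peak within 1 kb of the start in both libraries, though not always over the start itself. A peak of the authors' lists overlapped the window of 1 kb on either side of the gene's start, by at least 1 base, for 9 of the 9 genes in KO and 8 of the 9 in WT. The background was 61.3% of all genes in KO and 60.9% in WT, and 93.6% of the tested genes in each. Both libraries had such a peak for 8 of the 9, against 59.1% of all genes and 92.8% of the tested genes. Peaks were called in each library separately and there is 1 library per genotype, so the lists are compared by position only, with no test. The fold enrichment of a peak, given by the authors' peak caller over the background of its own library, describes a peak within its list and is not compared between lists.

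Ddr2 and S100a4 had broad peaks over their starts. Counted in bp from the start, the Ddr2 peak ran from -1690 to 2697 in KO, with a fold enrichment of 14.9, and from -1692 to 3199 in WT, with 14.4. At S100a4, 1 KO peak of 9280 bp, from -6263 to 3016, covered the positions of 3 WT peaks of 1514, 3037 and 3197 bp. Within 10 kb of S100a4 the peaks covered 14462 bp in KO and 13905 bp in WT. The printed S100a4 promoter, with its TATAAA, lay wholly inside a peak in both libraries.

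Dpep1 and Cd34 also had a peak across the start in both libraries. All 250 bases of the printed Dpep1 promoter lay inside a peak in each, with fold enrichments of 14.03 in KO and 14.8 in WT. The WT peak of 4521 bp spanned the positions of 2 KO peaks of 1957 and 1448 bp. At Cd34 the KO peak ran from -294 to 875 and the WT peak from -98 to 875. All 248 printed bases were thus in the KO peak and 98 of them in the WT peak. The fold enrichment was above that of 76.8% of all KO peaks and 66.4% of all WT peaks. At Thy1 a modest peak covered the start, 1226 bp wide in KO and 502 bp in WT, and the stronger ones, with fold enrichments of 18.3 and 15.6, lay at its 3′ end.

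The LY6 genes and Pi16 had their peaks beside the start rather than over it. At Ly6a 1 peak ended at -120 in KO and at -367 in WT, and a stronger one, with a fold enrichment of 16.2 in KO and 15.6 in WT, lay over most of the gene body. At Ly6c1 the upstream peak ended at -582 in KO and at -183 in WT, so that 75 bases of the printed promoter, on its upstream side, were inside the WT peak and none inside the KO peak. At Pi16 the upstream peak ended at -472 in KO and at -337 in WT. A second Pi16 peak began at 1199 in KO and at 1078 in WT, inside the gene.

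Within 1 kb of the start, Scara5 was the 1 gene with a peak in a single list. Within 250 bp, Ly6a and Scara5 had a peak in KO only and Ly6c1 in WT only. In that window 7 of the 9 genes had a peak in KO and 6 in WT. The shares in KO and WT were 57.2% and 56.9% of all genes, and 91.4% and 91.5% of the tested genes. Both libraries had a peak within 250 bp for 5 of the 9, against 55.0% of all genes and 90.4% of the tested genes. With the summit required within 1 kb, Scara5 had a peak in KO only and Ly6a in WT only. A peak of 454 bp, from -163 to 290, was listed in KO and none within 1 kb in WT. A peak within 1 kb of the start in 1 list only was found for 4.07% of all genes and 1.52% of the tested genes. When the starts of all annotated transcripts were used, Scara5 had a peak in both lists. The Scara5 peak was weak, with a fold enrichment of 3.40, above 2.3% of the KO peaks, and a −log10 q-value of 2.57. It was gone from the KO list at a −log10 q-value of at least 5. Farther inside the gene both libraries had, among others, an intronic peak at 9085 to 10278 bp in KO and 9284 to 10193 bp in WT.

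Over the 9 genes with 10 kb on either side there were 69 peaks in KO and 77 in WT. Of these, 59 in KO and 61 in WT overlapped a peak of the other library by at least 1 base, 85.5% and 79.2%, against 76.3% and 75.6% of all peaks in the lists. Thy1 and Ly6a had 5 peaks in each library, all shared. Scara5, the least expressed gene, had 4 of 11 KO peaks and 5 of 12 WT peaks in 1 list only. The map of peaks around the starts shows the broad peaks of Ddr2, Dpep1 and S100a4 and the gap over the start of Ly6c1 and Pi16.

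**Figure D4:**
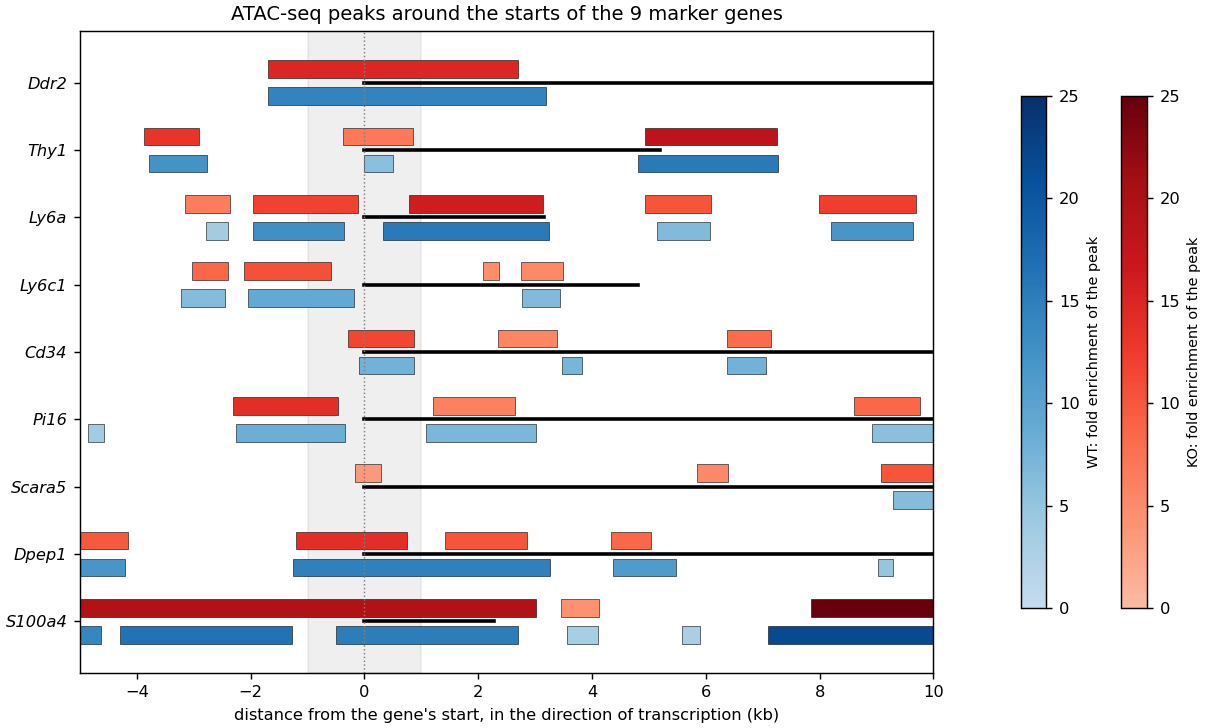
ATAC-seq peaks of the authors' lists from 5 kb before to 10 kb after the start of each marker gene, KO in red above and WT in blue below the gene line (black, cut at 10 kb); the horizontal axis is the distance from the start in kb, the colour is the peak's fold enrichment in its own list, and the grey band is the 1 kb window on either side. The KO peak over the start of Scara5 has no WT counterpart, and the 1 KO peak over the start of S100a4 covers the positions of 3 WT peaks.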

How the data were processed

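For RNA-seq, the deposited table gives estimated counts by gene for 4 libraries. Per the labels' protocols, paired reads of 150 bp from a low-input kit went through Trim Galore 0.6, then STAR 2.5.3a on mm10. The labels speak of TPM, but column totals differ between libraries, so the values are read as estimated counts. Which program and gene set gave the counts is not given in the sources used here. The kit is not stated to keep strand, so antisense partners cannot be separated. Between 10.8 and 12.2% of the values are not whole, and they were rounded for testing.

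The design had assumed whole counts, and its test was kept: the quasi-likelihood test of edgeR 4.0.16 (R 4.3.3) on genotype after filterByExpr at a minimum count of 10 and TMM scaling. P-values of the 12192 remaining genes were adjusted by Benjamini-Hochberg, with a threshold of 0.05. Dividing the absolute log2 fold change by the square root of F gave the SE. CPM uses TMM-scaled library sizes. The test was checked on simulated counts. Replicates differed by more than sampling noise (chi-square per degree of freedom 1.93 in KO and 1.75 in WT).

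For ATAC-seq, the authors deposited MACS2 peaks, called in each sample with no local background. The labels' protocols name Bowtie2 2.3 and mm10 for alignment, and the removal of PCR duplicates and of mitochondrial reads. The version of MACS2 is not given in the sources used here. The deposited columns hold a score, a fold enrichment, the ratio over background within that library, −log10 p-values and −log10 q-values. Starts are those of GENCODE M21, which holds 25712 of the 25746 gene identifiers, 25535 of them at the same position. Coordinates are 1-based.

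The 9 genes and all lists were chosen with earlier results of these data known. Beside the 9 genes and Acta2, the text names the 2 called genes of smallest p in each companion list, the 3 genes nearest in pattern to the 2 markers of largest absolute fold change (mean CPM at least 10), and genes behind counts of 5 or fewer; further names, given to be read beside a marker, were chosen after their values were seen. Some genes that these rules name are not reported here. The alternatives were other scalings, tools, filters, assumed BCVs, a replicate block and each library left out, and for peaks other windows, thresholds and starts.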

Additional observations from a re-analysis of the deposited data

How the results depend on the processing

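The tested markers other than Ddr2 kept direction under all 13 alternatives, although the sizes for Ly6c1, Pi16 and S100a4 varied widely. The number of markers called was 3 under DESeq2 (Cd34, Dpep1 and Ly6a), also 3 at an assumed BCV of 0.1 (Dpep1, Ly6a and Pi16), and 0 with an assumed BCV of 0.2 in edgeR's likelihood ratio test, where 1 had an unadjusted p under 0.05. It was 5 to 6 when 1 library was left out. Over all genes the count of 4352 went to 2058 with DESeq2, 1780 with a BCV of 0.1, 398 with a BCV of 0.2, and 3392 to 3674 with 1 library left out; the fitted BCV was 0.0311. Ddr2 turned to 0.0082 without WT replicate 2 (range -0.26 to 0.0082 with 1 library left out). With a replicate block in edgeR 4408 genes and 5 markers were called, but S100a4 entered (adjusted p = 0.0425) and Ly6c1 left (adjusted p = 0.0655). The deviations of same-numbered libraries had a correlation of 0.0056 over the tested genes. With 1 pair of libraries per genotype this cannot show whether same-numbered libraries were paired, and the labels do not say. Ly6c1 also left without a low-count filter (adjusted p = 0.0621). Of 25 other named genes, 5 lost their call with DESeq2, 7 with a BCV of 0.1 and 19 with a BCV of 0.2, and none reversed. With the summit required in the window, 5 markers had a promoter peak in KO and 5 in WT. The shares in KO and WT were 55.7% and 55.8% of all genes, and 87.1% and 87.6% of the tested genes. At a −log10 q-value of at least 20 there were 7 markers in KO and 4 in WT. The shares were then 48.8% and 45.8% of all genes, and 85.2% and 82.2% of the tested genes. The cause of these shifts was not tested.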
